A study of Mus musculus with 10 samples.

Results

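This account covers 10 genes of bone morphogenetic protein (BMP) signalling in the mouse kidney, out of 30063 genes measured. They are the 4 Id genes (Id1, Id2, Id3, Id4), the inhibitory Smads Smad6 and Smad7, the receptor-activated Smads Smad1, Smad5 and Smad9, and the common Smad, Smad4. The members were taken by gene symbol, and each is read by 1 row of the array annotated to that symbol alone. The set was chosen by gene family with the knockout minus control differences of these arrays already known. Its values in that comparison are therefore given as a description, with means, errors and intervals but without p-values.

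Whole-kidney RNA of 5-week-old mice was measured on Affymetrix whole-transcript arrays, 1 kidney sample per array, in 5 knockout and 5 control mice. Knockouts carried floxed Lkb1 (gene symbol Stk11) together with the KspCre transgene, in which the Cdh16 promoter drives Cre recombinase in kidney tubules. Controls were littermates without KspCre, with floxed Lkb1 on 1 or both chromosomes. Only the knockouts carried Cre, so an effect of the transgene cannot be told apart from one of Lkb1 loss. The labels of the knockouts speak of a knockdown, the breeding protocol of a Cre knockout, and the protocol is followed here. The labels give C57Bl/6N as the strain, and the protocol a mixed background for the floxed line. The series' design text names MDCK cells, whereas all 10 samples are mouse kidney. Each value is an RMA log2 expression value.

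BMP ligands bind pairs of receptor serine/threonine kinases at the cell surface, which phosphorylate SMAD1, SMAD5 and SMAD9. These bind SMAD4, enter the nucleus and switch on target genes, of which the Id genes are the best known. SMAD6 and SMAD7 are induced by the same pathway and block it at the receptors, a negative feedback loop. ID proteins have a helix-loop-helix domain but no DNA-binding region, so they bind E proteins such as TCF3, TCF4 and TCF12 and keep them off DNA. In the kidney, BMP7 is needed for nephron formation, and BMP signalling is known to oppose fibrosis in injured tubules.

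The targeted gene was lower in every knockout. Stk11 (chromosome 10, 80115767 to 80130679, GRCm38) averaged 9.18 ± 0.10 in knockouts and 9.43 ± 0.03 in controls (SD, n = 5 each), so the log2 difference was -0.25 (SE 0.05, limma adjusted p = 0.00746). The array averages deleted and remaining exons in all cells of the kidney. Across all genes the median log2 difference was -0.03. Kidney identity was plain in both groups: the mean level of 14 proximal tubule markers was 12.11 to 12.36 in knockouts and 12.38 to 12.47 in controls, and none of them lay below the median of 5222 negative control probe sets in both groups.

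The sequences upstream of Id2, Id3 and Id4, the Id genes whose promoters were analysed, are shown here. BMP-activated Smads are known to bind DNA at GC-rich elements, and binding at these genes was not tested. The 250 bases before the start site were taken from RefSeq promoters (GRCm38.p6) for 7 members, namely Id2, Id3, Id4, Smad1, Smad5, Smad6 and Smad9, and for 27025 genes in all. The promoters of Id1, Smad4 and Smad7 were not analysed here. Both strands were searched for the palindrome GGCGCC of BMP Smad elements, for the Smad box CAGAC and for the palindrome TGACGTCA bound by CREB. These motifs do not overlap in the sequences below. Capitals mark GGCGCC in Id2 and Id4, and CAGAC in Id3, which holds it once on either strand. The sequences are printed 5′ to 3′ on the strand of the gene.
Id2, chr12:25096093-25096342, minus strand: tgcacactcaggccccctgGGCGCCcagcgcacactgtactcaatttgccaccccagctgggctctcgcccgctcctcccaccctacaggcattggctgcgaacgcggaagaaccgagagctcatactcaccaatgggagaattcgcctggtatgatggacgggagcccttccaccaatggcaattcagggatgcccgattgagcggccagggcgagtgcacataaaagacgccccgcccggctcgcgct
Id3, chr4:136143572-136143821, plus strand: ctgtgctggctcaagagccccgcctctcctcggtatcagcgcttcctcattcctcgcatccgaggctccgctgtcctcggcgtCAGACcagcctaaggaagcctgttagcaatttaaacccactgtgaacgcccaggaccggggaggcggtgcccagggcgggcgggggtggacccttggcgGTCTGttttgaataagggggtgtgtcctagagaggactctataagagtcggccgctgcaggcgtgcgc
Id4, chr13:48260866-48261115, plus strand: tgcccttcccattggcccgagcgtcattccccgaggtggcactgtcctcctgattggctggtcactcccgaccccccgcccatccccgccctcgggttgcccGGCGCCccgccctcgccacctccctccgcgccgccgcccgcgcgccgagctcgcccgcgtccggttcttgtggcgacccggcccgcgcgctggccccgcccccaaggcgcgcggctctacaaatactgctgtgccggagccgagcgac

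GGCGCC began at position -231 from the start site in Id2, at -148 in Id4 and at -51 in Smad9, and was not found in the windows of Id3, Smad1, Smad5 and Smad6. It is held by 9.54% of all 27025 promoters and by 25.9% of the 7446 with a GC content of at least 60%. The 7 windows had GC contents of 60% (Smad5) to 75.6% (Id4), against a median of 52% over all promoters. CAGAC occurred in Id3 alone among the 7, at -167 and -68. It is held by 42.1% of all promoters and by 39.1% of those with a GC content of at least 60%. For Smad9 the position counts from the RefSeq start site of the promoter table, which lies downstream of the gene's annotated start, so that match falls within the gene as annotated. TGACGTCA, held by 1.62% of all promoters, was in none of the 7 windows. A match describes the letters only and is not evidence of a bound site.

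All 4 Id genes were lower in the knockouts, and for each of them the 5 knockout values lay below the 5 control values. The smallest log2 difference among them was -0.53 (Id3) and the greatest -1.01 (Id4), with a median of -0.70. In whole-kidney RNA, fewer cells of a type and less RNA per cell cannot be told apart. The plot of single kidneys shows the values of all 10 genes on panels of the same height.

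**Figure D1:**
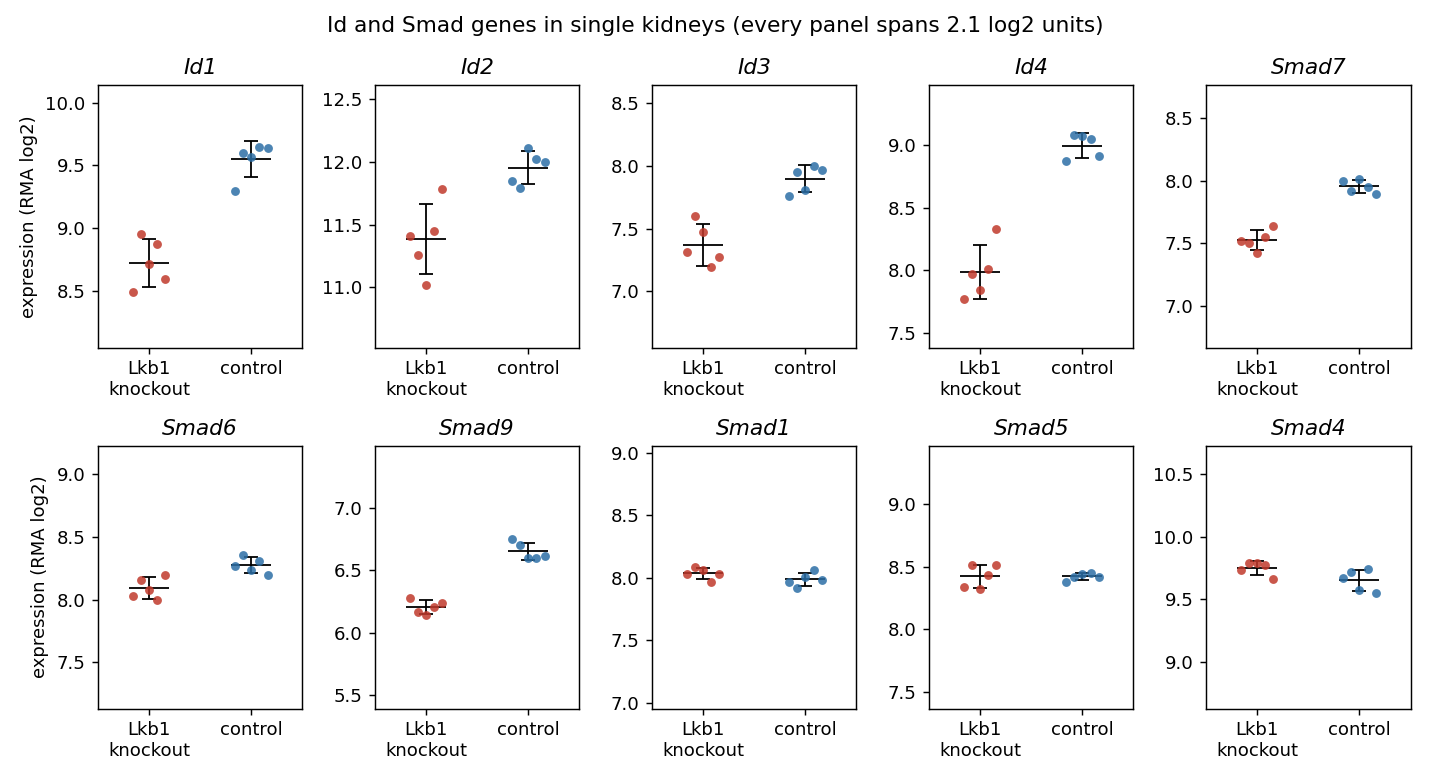
Expression (RMA log2, vertical axis) of the 10 genes in single kidneys, with knockouts left and controls right in each panel. Points are kidneys 1 to 5 from left to right, horizontal lines the means and bars the SD (n = 5 each). The groups are separate for the 4 Id genes, Smad7 and Smad9, touch for Smad6 and overlap for Smad1, Smad5 and Smad4.

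Id4, the Id family member linked in other tissues to neural and gland progenitors, showed the greatest difference. It lies on chromosome 13 at 48261116 to 48266028. The knockouts 1 to 5 measured 7.77, 7.97, 7.84, 8.01 and 8.33, and the controls 1 to 5 measured 8.87, 9.08, 9.07, 9.05 and 8.91. The lowest control stood 0.55 log2 units above the highest knockout. The means were 7.98 ± 0.22 in knockouts and 9.0 ± 0.10 in controls (SD, n = 5 each), so knockouts had 49.6% of the control level (95% interval 43.3% to 56.8%). Of all 30063 genes, 11 had a lower difference than Id4.

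Id1, the classic early target of BMP signalling, lies on chromosome 2 at 152736251 to 152737410. Knockouts 1 to 5 measured 8.49, 8.95, 8.71, 8.87 and 8.59, and controls 1 to 5 measured 9.30, 9.60, 9.57, 9.65 and 9.64. Control 1 was the lowest of the controls, and still 0.35 above the highest knockout. The means of 8.72 ± 0.19 in knockouts and 9.55 ± 0.15 in controls (SD, n = 5 each) gave a log2 difference of -0.83 (SE 0.09). Knockouts thus had 56.2% of the control level (95% interval 48.9% to 64.6%).

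Id2, a regulator of lymphoid and epithelial differentiation, lies on chromosome 12 at 25093799 to 25096092. Knockouts 1 to 5 measured 11.41, 11.26, 11.02, 11.45 and 11.78, against 11.85, 11.79, 12.11, 12.02 and 12.00 in controls 1 to 5. Its groups nearly met, with knockout 5 just 0.016 below the lowest control, kidney 2. The range over the knockouts, 0.76, was the widest of the 10 genes, against 0.32 over the controls. The log2 difference was -0.57 (SE 0.12), or 67.2% of the control level (95% interval 56.5% to 80.0%).

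Id3, which acts beside Id1 in blood vessels, lies on chromosome 4 at 136143822 to 136145392. Knockouts 1 to 5 measured 7.31, 7.60, 7.47, 7.19 and 7.27, against 7.76, 7.95, 7.81, 8.0 and 7.97 in controls 1 to 5. The gap between the groups was 0.17. The means were 7.37 ± 0.16 in knockouts and 7.90 ± 0.11 in controls (SD, n = 5 each), which differ by -0.53 log2 units (SE 0.08). The knockouts thus had 69.1% of the control level (95% interval 61.5% to 77.6%).

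The inhibitory Smads were also lower, Smad7 by more than Smad6. Smad7, which recruits ubiquitin ligases to BMP and TGF-beta receptors, lies on chromosome 18 at 75367365 to 75395935. Knockouts 1 to 5 measured 7.52, 7.5, 7.42, 7.55 and 7.64, against 8.0, 7.92, 8.01, 7.95 and 7.89 in controls 1 to 5. The groups stood 0.25 apart, and neither group spread over more than 0.22. The log2 difference was -0.43 (SE 0.05), or 74.3% of the control level (95% interval 69.2% to 79.8%).

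Smad6, the inhibitor that acts mainly on BMP receptors, lies on chromosome 9 at 63953076 to 64022085. Knockouts 1 to 5 measured 8.03, 8.16, 8.08, 8.0 and 8.20, against 8.27, 8.36, 8.24, 8.31 and 8.20 in controls 1 to 5. Knockout 5 and control 5 were practically level, 0.0009 apart. The means of 8.10 ± 0.08 in knockouts and 8.28 ± 0.06 in controls (SD, n = 5 each) differed by -0.18 (SE 0.05), or 88.3% of the control level (95% interval 82.0% to 95.1%).

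Among the Smads that carry the signal, Smad9 was lower with no overlap between the groups. Smad9, the receptor-activated Smad once called Smad8, lies on chromosome 3 at 54755455 to 54801662. Knockouts 1 to 5 measured 6.28, 6.17, 6.14, 6.21 and 6.24, against 6.75, 6.70, 6.60, 6.60 and 6.61 in controls 1 to 5. The groups stood 0.32 apart, well over the range within either, which was 0.14 in knockouts and 0.15 in controls. The log2 difference was -0.45 (SE 0.05), or 73.4% of the control level (95% interval 68.4% to 78.8%). Smad9 was the dimmest of the 10: in knockouts its mean lay above 73.9% of the negative control probe sets, and in controls above 81.7%, so the size of its difference is uncertain.

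The other carriers of the signal overlapped between the groups. Smad1 (chromosome 8, 79338395 to 79399428) spanned 7.97 to 8.09 in knockouts and 7.92 to 8.06 in controls, a log2 difference of 0.05 (SE 0.04, 95% interval -0.04 to 0.13). Smad5 (chromosome 13, 56703010 to 56742378), which works interchangeably with Smad1 in many tissues, spanned 8.32 to 8.51 in knockouts and 8.38 to 8.45 in controls, with the same mean of 8.42 in both. Its interval ran from -0.10 to 0.10. Smad4 (chromosome 18, 73634790 to 73703791), the partner of all receptor-activated Smads, spanned 9.66 to 9.79 in knockouts and 9.55 to 9.74 in controls, a log2 difference of 0.10 (SE 0.05, 95% interval -0.01 to 0.20). The lowest bound among the intervals of these 3 genes was -0.10, while the bound nearest to 0 among those of the Id genes was -0.32 (Id2). The interval of Smad6, from -0.29 to -0.07, lay between and reached past that lowest bound. These 3 genes were grouped after their values were seen, so nothing is read from the separation.

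**Figure D2:**
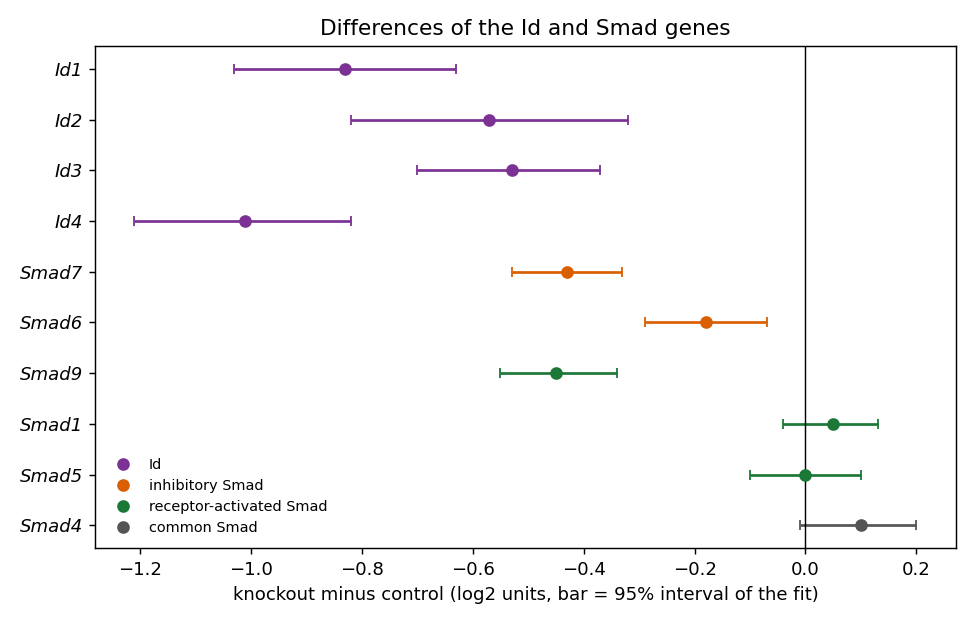
Knockout minus control differences (log2 units, horizontal axis) of the 10 genes, coloured by role. Points are the fitted differences and bars their 95% intervals. The 4 Id genes, Smad7, Smad6 and Smad9 lie left of 0, from -1.01 to -0.18, while the intervals of Smad1, Smad5 and Smad4 include 0.

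In all, 7 of the 10 genes were lower in every knockout than in every control, as were 3.51% of all genes, and the other 3 overlapped. The same 7 were past the threshold of the fit over all genes (limma, Benjamini-Hochberg adjusted p of 0.05) as lower and 0 as higher, where 2.67% of all genes were called lower and 5.37% higher. Since the set was chosen with this contrast known, nothing is read from these shares. Smad6 was the weakest of the 7. It lost its call in 10 of 17 alternative fits, namely with median centring, with the replicate number as a block, and without any 1 of knockouts 1 to 4 or controls 1 to 4, with differences of -0.20 to -0.16. The other 6 kept theirs in all 17. These fits reuse the same 10 arrays and the same known contrast, so nothing is read from kept calls either. After quantile normalisation 55.6% of the calls over all genes were higher, against 66.8% in the deposited values.

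The knockouts did not rank alike for all of the lower genes. Knockout 5 was the highest of the knockouts for Id2, Id4, Smad6 and Smad7, with log2 values of -0.18, -0.67, -0.08 and -0.32 relative to the control mean. For Id1 and Id3 it was the second lowest, at -0.97 and -0.63. Knockout 5 also had the highest Stk11 of the knockouts (9.31) and the lowest signal for Grem1, the secreted BMP antagonist (7.42, against 9.12 to 9.59 in the other knockouts). It was likewise nearest to the controls for cell type markers outside BMP signalling, namely Lyz2 (8.93), Dpt (8.52), Egf (12.18) and Slc26a4 (8.65). For the markers Stc1, Krt20, Slc4a1 and Slc7a13 it was not. The cause of these ranks was not tested. Averaged over the 4 Id genes, the knockouts 1 to 5 stood at -0.85, -0.66, -0.84, -0.72 and -0.61, and the controls 1 to 5 at -0.15, 0.01, 0.04, 0.08 and 0.03. As a description, Pearson r of the deviations from the group means over the 10 kidneys was 0.80 for Id2 with Smad7, 0.67 for Id2 with Id4, 0.64 for Id4 with Smad7 and 0.55 for Id1 with Id3. It was -0.14 for Id1 with Id2, -0.49 for Id2 with Id3, -0.66 for Id3 with Smad7 and -0.68 for Id1 with Smad9, the lowest of all pairs. For Id4 with Smad5, a gene that overlapped between the groups, it was 0.77. These pairs were named after their values were seen, the arrays share their normalisation, and no test was made.

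**Figure D3:**
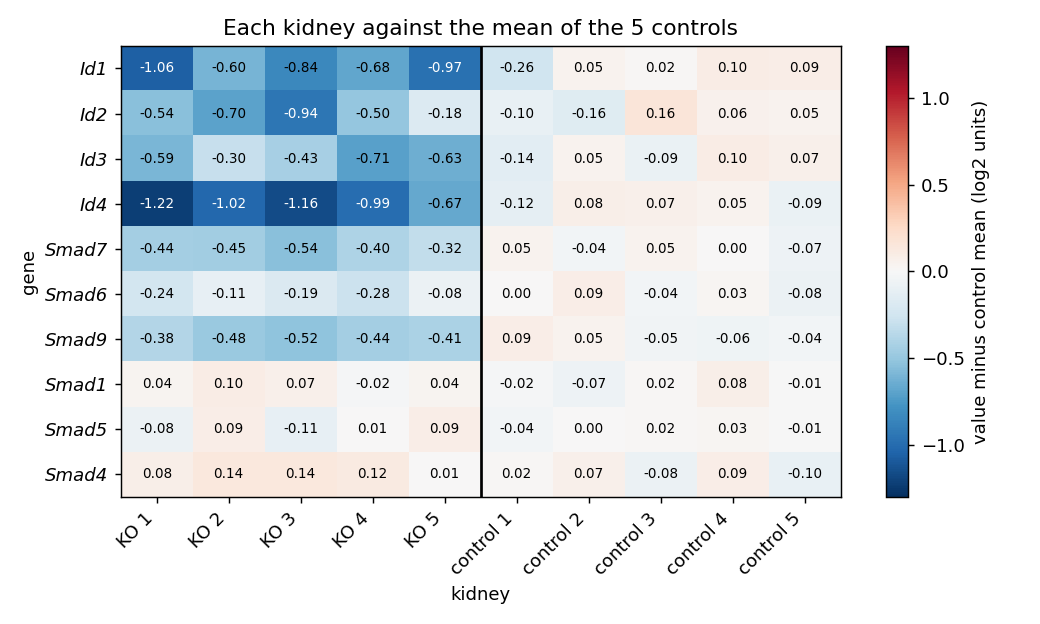
Value of each gene in each kidney minus the mean of the 5 controls (log2 units, colour and printed number), with genes in rows, knockouts (KO) in the left columns and controls in the right. Id4 ranges from -1.22 to -0.67 over the knockouts, while Id2 reaches -0.18 in knockout 5.

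Markers of several kidney cell types moved between the groups as well. Of all genes, 5.37% were called higher and 2.67% lower. Thick ascending limb markers fell for 8 of 9 and rose for 1, with a mean log2 level per kidney of 9.91 to 10.18 in knockouts and 10.43 to 10.60 in controls. Intercalated cell markers fell for 10 of 12 (8.56 to 8.91 in knockouts, 9.14 to 9.30 in controls), and distal convoluted tubule markers for 6 of 10 (9.36 to 9.57 in knockouts, 9.71 to 9.87 in controls). Egf, a growth factor of the distal nephron, was the most changed of the first list (log2 difference -0.96, SE 0.09, limma adjusted p = 0.000104). Slc26a4, the most changed of the intercalated cell list, fell further (-1.13, SE 0.20, limma adjusted p = 0.0044). Of the proximal tubule markers 4 of 14 fell, and of the principal cell markers 4 of 11 rose and 1 fell (9.0 to 9.30 in knockouts, 8.71 to 8.98 in controls). The part of these cell types in the lower Id and Smad signals was not tested.

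Endothelial cells are known for high Id1, Id3 and Smad6, and their markers did not pass in either direction. Of 19 endothelial markers 0 rose and 0 fell by limma, while 1 was higher and 1 lower when p-values under 0.05 were counted without adjustment, and their mean level was 8.72 to 9.02 in knockouts and 8.71 to 8.96 in controls. Macrophage markers rose for 16 of 17 (7.17 to 7.86 in knockouts, 6.51 to 6.76 in controls) and fibroblast and matrix markers for 12 of 14 (8.86 to 9.57 in knockouts, 7.90 to 8.19 in controls). Urothelium markers rose for 6 of 9 (7.09 to 7.45 in knockouts, 6.26 to 7.07 in controls). T and NK cell markers rose for 4 of 12 (5.10 to 5.4 in knockouts, 4.92 to 5.13 in controls). Of these 12, Cd2, Cd28, Klrb1c, Klrd1 and Ncr1 were below the negative control median in both groups. Klrd1 was among the 4 that rose. Il7r, another of the 4, had means of 5.27 in knockouts and 4.76 in controls, near or below that median of 5.22. Of 3 erythrocyte markers 1 fell, Slc4a1, which intercalated cells also express. No podocyte (8), adipocyte (8), adrenal (10) or B cell (7) marker passed by limma. Without adjustment, 1 adipocyte and 1 B cell marker were higher at p under 0.05. The part of any of these cells was not tested either.

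Upstream of the Smads, a few secreted factors rose and no receptor passed. Over all genes 5.37% were called higher and 2.67% lower. With dim genes left out a greater share was called, 1745 higher and 922 lower of 19464. The pathway lists are also short. The counts of this and the following pathway lists are therefore descriptions, and no list was tested as a set. Of 14 BMP ligand genes 2 rose, 1 fell and 11 did not pass. Bmp3, a ligand known to oppose other BMPs, averaged 9.02 ± 0.46 in knockouts and 6.83 ± 0.14 in controls (SD, n = 5 each; log2 difference 2.19, SE 0.18, limma adjusted p = 4.92e-05). Bmp2, a strong activator of the pathway, rose by 0.18 (SE 0.05, limma adjusted p = 0.0491), a call that was lost with array weights and without any 1 kidney other than knockout 4. Bmp2 was also dim, with means above 79.8% of the negative control probe sets in knockouts and 76.6% in controls. Bmp5 was called lower but lay below the negative control median in both groups. Bmp7, the main ligand of the nephron, had a log2 difference of -0.17 (SE 0.08, limma adjusted p = 0.191), Bmp6 of 0.22 (SE 0.06, limma adjusted p = 0.0575, past the threshold in 5 of the 17 alternatives) and Bmp4 of 0.15 (SE 0.06, limma adjusted p = 0.128). These 3 were named after their values were seen.

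Among 16 measured genes for BMP antagonists and related secreted modulators 2 rose, 0 fell and 14 did not pass. Grem1 averaged 8.99 ± 0.89 in knockouts and 5.07 ± 0.25 in controls (SD, n = 5 each, limma adjusted p = 7.04e-05). With dim control values raised to each array's negative control median, the estimate was 13.2-fold higher, which is not a lower bound. As deposited, the 95% interval ran from 911% to 2497% of the control level. Knockout 5 lay 2.35 log2 units above the control mean, and the other knockouts 4.05 to 4.52. Fstl1, a follistatin-like glycoprotein that binds BMPs, rose by 0.51 (SE 0.13, limma adjusted p = 0.0332), a call that was lost without any 1 of knockouts 1 to 3 or controls 1, 3, 4 and 5. Of 15 receptors and co-receptors 0 rose and 0 fell by limma, while without adjustment 1 was higher and 2 were lower at p under 0.05. The closest were the activin and BMP receptor Acvr2a (log2 difference -0.16, SE 0.05, limma adjusted p = 0.0691) and the endothelial receptor Acvrl1 (0.20, SE 0.07, limma adjusted p = 0.101).

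Few other genes around the Smads passed, where 5.37% of all genes were called higher and 2.67% lower. With dim genes left out, 1745 of 19464 were called higher and 922 lower. The TGF-beta and activin Smads did not pass: Smad2 had a log2 difference of 0.09 (SE 0.04, limma adjusted p = 0.235) and Smad3 of 0.07 (SE 0.05, limma adjusted p = 0.371). Of 15 genes that restrain Smads, by ubiquitination, dephosphorylation or co-repression, 1 rose and 0 fell. It was the co-repressor Tgif1 (0.29, SE 0.08, limma adjusted p = 0.0355), whose call was lost with median centring and without the same kidneys as for Fstl1. Of 10 partner factors 2 rose and 0 fell, Runx1 (0.45, SE 0.07, limma adjusted p = 0.00164), a transcription factor of blood cells and injured epithelia, and Gata6 (0.37, SE 0.08, limma adjusted p = 0.0163). Runx1 was dim, with means above 83.2% of the negative control probe sets in knockouts and 75.5% in controls.

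None of the other listed BMP target genes passed, where 5.37% of all genes were called higher and 2.67% lower. Of 20 such genes 0 rose and 0 fell by limma, while without adjustment 2 were higher and 1 was lower at p under 0.05, with a median log2 difference of -0.02. The pseudoreceptor gene Bambi had a log2 difference of -0.07 (SE 0.06) and Atoh8 of -0.04 (SE 0.06), both named after their values were seen. Prdm16, a zinc finger regulator, was nearest to the threshold (-0.17, SE 0.05, limma adjusted p = 0.0535), followed by the Notch and BMP target Hey1 (0.29, SE 0.11, limma adjusted p = 0.150). Many genes of this list were dim, and Msx2, Dlx6 and Tbx20 were below the negative control median in both groups. The difference between these targets and the Id genes was not itself tested.

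Of 15 E proteins and helix-loop-helix factors, the class of proteins that ID proteins bind or resemble, 2 rose, 0 fell and 13 did not pass. Tcf12, an E protein bound by ID proteins, rose by 0.22 (SE 0.05, limma adjusted p = 0.0228). The E proteins Tcf3 (0.01, SE 0.04) and Tcf4 (0.03, SE 0.05), named after their values were seen, did not pass. Bhlhe40, a repressor of the circadian clock, rose by 0.26 (SE 0.06, limma adjusted p = 0.0207). Tcf12 lost its call with median centring and without any 1 of knockouts 2 and 3 or controls 1, 3 and 5, and Bhlhe40 without control 1.

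**Figure D4:**
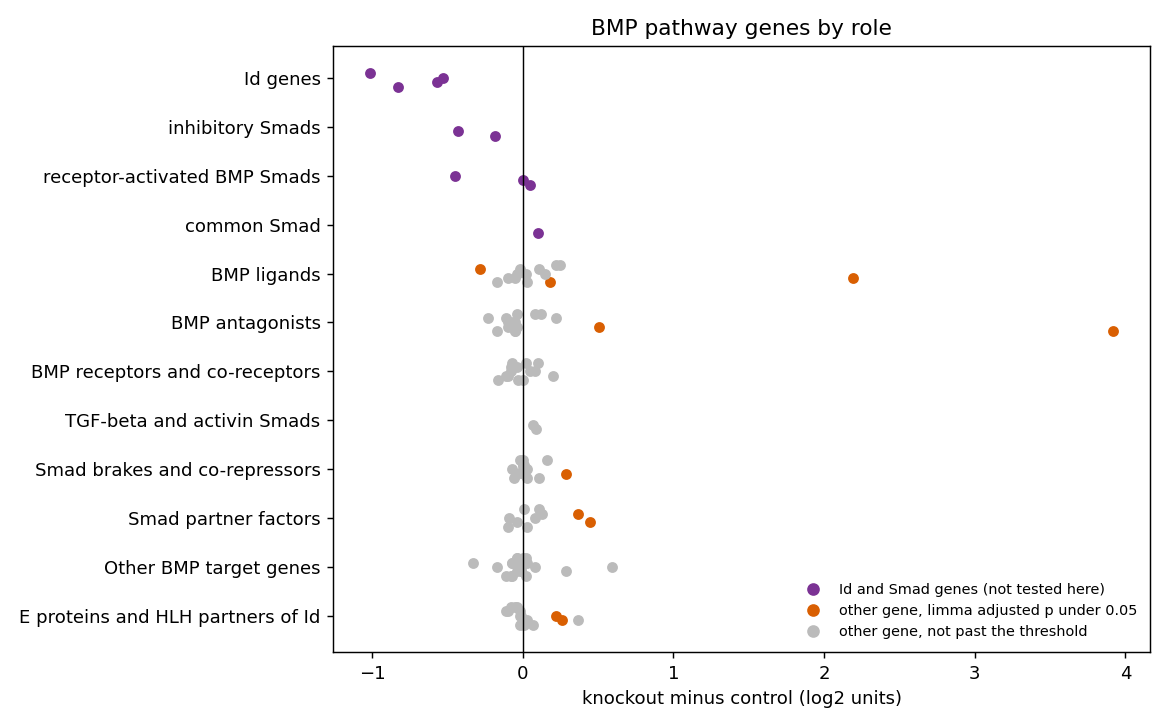
Knockout minus control differences (log2 units, horizontal axis) of single genes, 1 row per role in BMP signalling, with a small vertical offset for legibility. Purple points are the Id and Smad genes described here, orange points other genes past the limma threshold and grey points genes that were not. Grem1 and Bmp3 (2.19) lie far right and the Id genes (-1.01 to -0.53) far left. The point of Grem1 uses its dim control values as deposited, so its size is uncertain. The text gives the fold with those values raised, and the interval of the deposited values.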

How the data were processed

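The authors deposited RMA log2 expression values per transcript cluster, per the submitters' processing notes, which also give the build mm10. The version of RMA and any filter were not given in the sources used here. The log2 scale was read from the values, with array medians of 5.35 to 5.42. Arrays carry no read counts, so their number limits the precision. Of 72688 rows, 30604 had a single gene symbol (2146 several, 39938 none). Rows of a gene were averaged, giving 30063 genes. The groups were compared in limma 3.58.1 under R 4.3.3 (lmFit, eBayes with trend, two-sided, Benjamini-Hochberg over all genes, threshold 0.05). The fit was tested on simulated data. Differences are knockout minus control. Tables and plots used Python 3.11.15, pandas 2.3.3 and matplotlib 3.10.9.

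The members and gene lists were chosen with earlier results of these data known. Named genes were the members, Stk11, Smad2 and Smad3, up to 4 genes past the threshold with the greatest differences per pathway list (otherwise the 2 with the smallest p), the most changed gene past the threshold of a marker list, and the 3 genes most like Id1 and most like Smad6. Not all of the marker genes named in this way are printed. Alternatives were quantile normalisation, median centring, leaving out dim genes, the brightest row per gene, no trend, array weights, a replicate block and leaving out each kidney.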

Additional observations from a re-analysis of the deposited data

Results flagged for a closer look

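In 37 named genes and 2 groups each, 74 groups of 5 kidneys were searched for a kidney far from the other 4, where chance gives about 1 in 20. 5 were found. Control 1 was low for Id1 (9.30, with the other controls at 9.57 to 9.65), and without it the log2 difference of Id1 was -0.90. Knockout 5 was low for Grem1 (7.42, with the other knockouts at 9.12 to 9.59). Control 5 was low for Acvr2a (8.52, the others at 8.62 to 8.65), knockout 4 was high for Bhlhe40 (8.60, the others at 8.40 to 8.45), and knockout 3 was low for the proximal tubule amino acid transporter Slc7a13 (10.28, the others at 10.53 to 10.62).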

How the results depend on the processing

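Over 17 alternatives the median log2 difference of the 10 Id and Smad genes was -0.46 to -0.41, against -0.44. No gene among the 7 lower ones changed sign. None of 170 single values moved by more than its SD within groups, but most of them could not. Leaving out 1 kidney cannot move a difference that far. The brightest row, no trend, leaving out dim genes and the replicate block leave these differences unchanged by design. Nothing is read from this count. The number past the threshold was 6 or 7, Smad6 being the one lost. Stk11 stayed past the threshold in all 17, with differences of -0.28 to -0.22. Over all genes, leaving out 1 kidney gave 1089 to 1947 higher and 435 to 1473 lower calls, against 1614 and 803. Knockout 5 set the upper ends of both ranges. Quantile normalisation gave 1301 lower calls.

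The calls of Grem1, Bmp3, Runx1 and Gata6 held in all 17 alternatives, while other list calls came and went. Quantile normalisation gave 1 receptor and 1 other target gene, median centring 0 Smad brakes and 1 helix-loop-helix factor, and leaving out dim genes 1 other target. Array weights gave 1 receptor, 2 brakes and 3 other targets. Leaving out 1 kidney gave 2 to 4 ligands, 1 to 3 antagonists, 0 to 1 receptors, 0 to 2 brakes, 0 to 2 other targets and 0 to 3 helix-loop-helix factors. The cause of these changes was not tested.

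With the replicate number as a block, Acvrl1 (1 receptor), Bmp6, Nbl1 and Tcf21 passed in addition and Smad6 did not, the calls were 1826 higher and 955 lower, and the median difference of the Id and Smad genes was -0.44. In their deviations from the group means, same-numbered kidneys correlated at 0.104 to 0.313 for 4 of 5 numbers, each such knockout correlating best with its own number among the controls. Number 4 had -0.079. The labels do not tie numbers to litters, so the numbers were not taken to pair the mice, although 4 of 5 hint at it.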

Other observations

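The genes whose signal varied most like that of a member within the groups were sought among 5748 genes above the 95th percentile of the negative control probe sets, by Pearson r of the deviations from the group means over 10 kidneys. For Id1 they were Chtf8 (0.939), Git2 (0.933) and Gtf2i (0.928), with log2 differences between the groups of 0.05, 0.21 and 0.05. For Smad6 they were Rtf2 (0.966), Tanc1 (0.925) and the smooth muscle actin gene Acta2 (0.925), with log2 differences of -0.01, -0.15 and 0.30. These are descriptions picked as the highest of many values, and the arrays share their normalisation.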
